A study of Homo sapiens with 6 samples.

Results

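The high mobility group (HMG) genes examined here were HMGB1, HMGB2, HMGB3, HMGA1, HMGA2, HMGN1 and HMGN2, which are targets, or relatives of targets, of inflachromene (ICM). They were taken by name as 7 of the 19974 protein-coding genes with a position on GRCh38, and every peak overlapping a gene body or the 50 kb on either side of it was collected. CUT&Tag, in which an antibody directs a transposase to the chromatin occupied by its target, had been applied to IMR90, a line of human fetal lung fibroblasts, with antibodies against the insulator protein CTCF and the cohesin subunit SMC1. Each antibody was used on control cells, on ICM-treated cells and on high-passage senescent cells, with 1 library per group and no replicates. The p number in the sample titles was 21, 16 and 34 for the control, ICM and senescent CTCF libraries, and 16, 16 and 34 for SMC1. The CTCF library from treated cells was labelled with 6 days of ICM, whereas its SMC1 counterpart carried no duration. All libraries came from the same cell line, and every title began with the same label, I79. The senescent libraries were labelled with no treatment. Passage and senescence cannot be told apart in this design, and the CTCF control also had a higher p number than the CTCF library from treated cells.

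HMG proteins are abundant chromatin proteins that act without a strict sequence preference. HMGB proteins carry HMG boxes that bend DNA, and HMGB1 also acts outside the cell as an inflammatory signal. HMGA proteins bind the minor groove of AT-rich DNA through AT-hooks, and HMGN proteins bind the nucleosome itself. CTCF stops the cohesin ring as it extrudes chromatin, so sites with both proteins often anchor loops, while cohesin alone is also found at active promoters and enhancers. Nuclear loss of HMGB1 and HMGB2 is a known mark of senescent fibroblasts.

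The peak lists held 14883, 17809 and 12927 SMC1 peaks in control, ICM and senescent cells, and 4673, 6728 and 8577 CTCF peaks. Read depth was unknown, and the smallest listed total signal ran from 2455 to 3456 for SMC1 and from 6267 to 20161 for CTCF. Each peak came with its total signal, which is coverage summed over the peak, and its highest signal. Levels are therefore given as listed and as a percentile within the same list, and no condition was tested against another. A peak missing from a list says only that no region there passed that list's threshold. An SMC1 promoter peak was listed at 6, 5 and 4 of 8 fibroblast marker genes in control, ICM and senescent lists, where 31.7%, 27.6% and 22.3% of all genes had one, and a CTCF promoter peak at 1, 4 and 1, where 8.78%, 12.6% and 9.56% had one. Among 5 epithelial genes only KRT8 had one, for SMC1 in control and senescent cells, and none of the 2 endothelial and 4 leukocyte markers found did. Peak lists hold no expression, so the cell type was not read from them.

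Across the HMG windows, which spanned 1.04 Mb, SMC1 was represented by 17 peaks in control, 18 in treated and 13 in senescent cells, and CTCF by 4, 6 and 6. This came to 16.4, 17.4 and 12.5 SMC1 peaks per Mb, next to 7.31, 8.47 and 6.27 per Mb of all gene windows together. For CTCF the densities were 3.86, 5.79 and 5.79 per Mb beside 2.42, 3.45 and 4.32. Counted per gene, the contrast was smaller. The median member had 2, 3 and 1 SMC1 peaks, where the median over all genes was 1 in each list. For CTCF it had 0, 1 and 0, where the median over all genes was 0, 1 and 1. HMGA1 alone contributed 14 of the 48 SMC1 and 9 of the 16 CTCF peaks. Without its window the SMC1 densities were 12.9, 15.1 and 8.63 per Mb, above those of all windows. The CTCF densities were then 2.16, 3.24 and 2.16, close to those of all windows in control and treated cells and lower in senescent cells. They rest on very few peaks, so no difference from all windows is read from them. At least 1 SMC1 peak was listed for 6, 6 and 5 of the 7 genes, where the share over all genes was 68.5% in control, 69.2% in treated and 63.3% in senescent cells. At least 1 CTCF peak was listed for 3, 4 and 3 of the 7, against 41.8%, 51.9% and 55.9% of all genes. With 7 genes these counts lie close to those shares. Every member but HMGB3 had an SMC1 peak in control and treated cells, and HMGN2 lacked one in senescent cells.

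**Figure D1:**
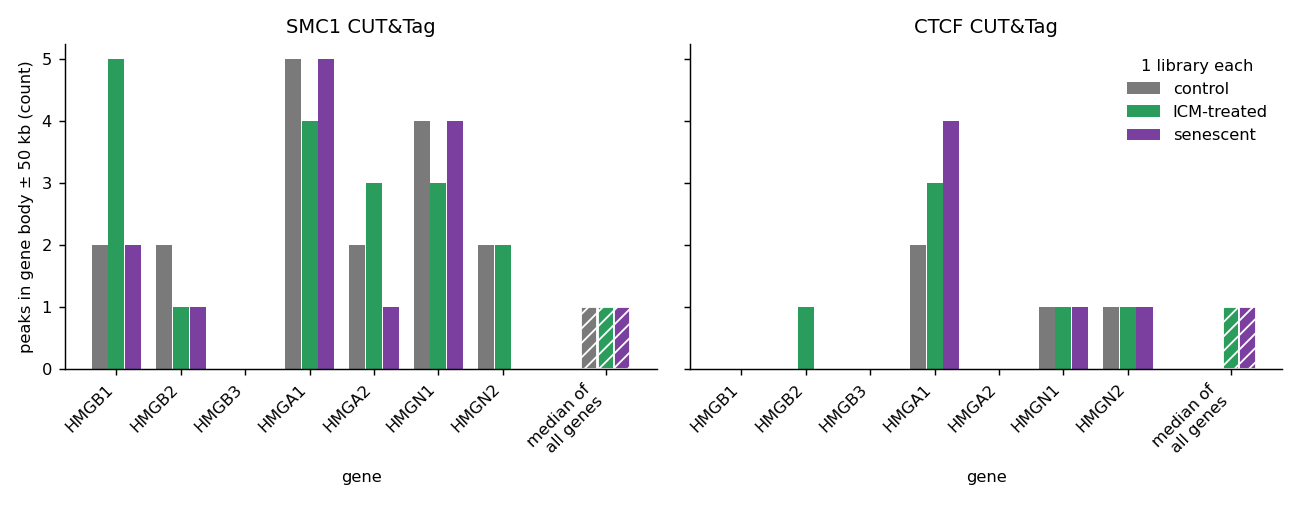
Number of SMC1 (left) and CTCF (right) peaks overlapping each gene body extended by 50 kb, in control (grey), ICM-treated (green) and senescent (purple) IMR90, 1 library each; hatched bars give the median over 19974 protein-coding genes. HMGA1 and HMGN1 hold 3 to 5 SMC1 peaks in every condition, HMGB1 holds 5 in the ICM list against 2 in each other list, and HMGB3 has no bar.

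Promoter peaks were mostly of SMC1. An SMC1 summit lay within 1 kb of the outermost 5′ end of HMGB1, HMGB2 and HMGA2 in each of the 3 lists, and of no other member. The share of all genes with such a peak was 31.7% in control, 27.6% in treated and 22.3% in senescent cells. With 7 genes, 3 of 7 is not far from these shares. A CTCF promoter peak was listed at 0, 1 and 0 of the 7 genes, with shares over all genes of 8.78%, 12.6% and 9.56%. The single CTCF peak belonged to HMGB2 in treated cells. HMGA1, HMGN1 and HMGN2 had peaks of both proteins in their windows and none at their own 5′ end.

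**Figure D2:**
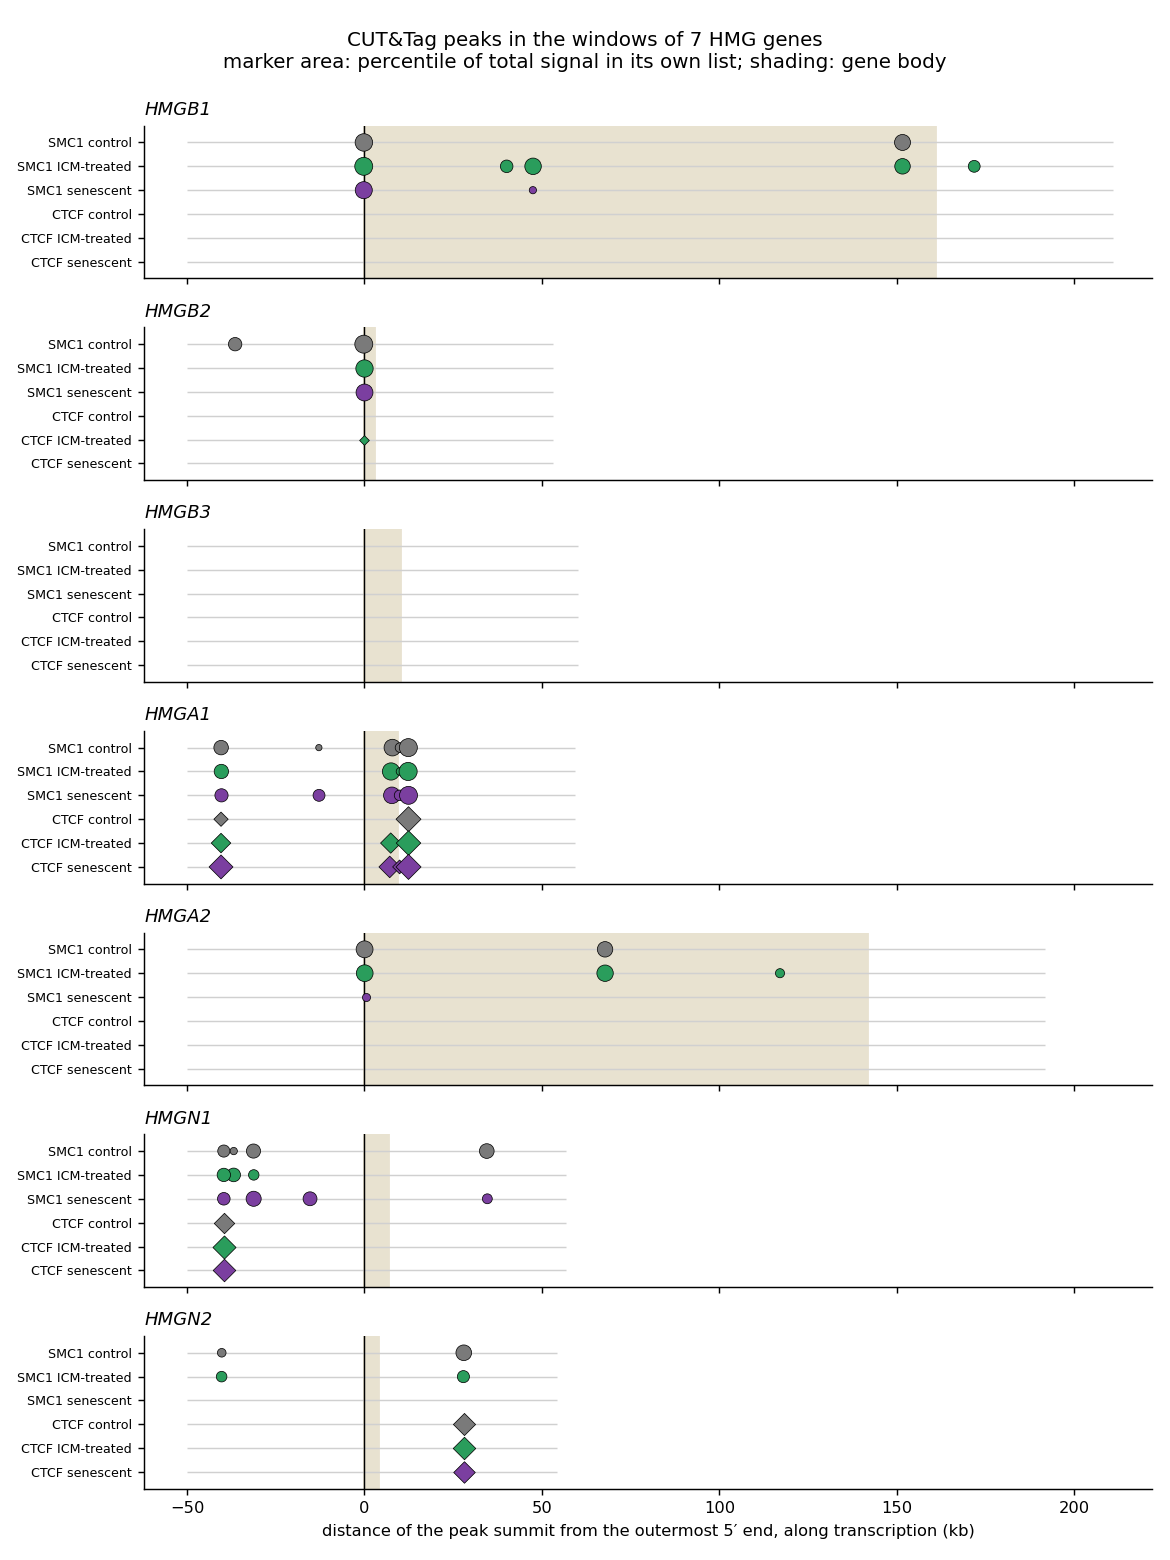
Peak summits in the 7 windows, with distance from the outermost 5′ end in kb along the direction of transcription on the x axis, and 1 row per library; circles are SMC1, diamonds CTCF, shading is the gene body and marker area follows the percentile of total signal. SMC1 circles stand at 0 kb for HMGB1, HMGB2 and HMGA2 in all 3 conditions, and the CTCF diamonds gather 40.4 kb upstream and 12.4 kb downstream of the HMGA1 start, 39.6 kb upstream of HMGN1 and 28.0 kb downstream of the HMGN2 start.

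HMGB2 (chr4:173331376-173334358, minus strand) is the DNA-bending HMG-box protein whose nuclear level drops early in senescence. Among the members examined, it carried the SMC1 promoter peak with the highest maximum in each list. By total signal the HMGB1 peak was larger in treated and senescent cells. In control cells the HMGB2 peak spanned chr4:173333790-173335507, was 1718 bp wide and had a total signal of 18913 and a highest signal of 84. In ICM-treated cells it was 415 bp wide with a total of 7996 and a highest signal of 41, and in senescent cells it was 785 bp wide with values of 6648 and 18. The summits lay 197, 177 and 255 bp upstream of the 5′ end and formed 1 site. By highest signal the peak stood at the 99.5th percentile of all SMC1 peaks in control cells, at the 97.3rd in treated and at the 88.6th in senescent cells. By total signal these percentiles were 96.6, 88.9 and 83.8. The HMGB2 promoter thus kept a high rank in each list, and the rank was lower in both treated and senescent cells than in control cells.

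Because the lists have different scales, the highest signal was also divided by its median over the 5575 SMC1 sites held by all 3 lists, a relative height chosen after the values had been seen. At HMGB2 it was 3.11 in control, 1.95 in treated and 1.38 in senescent cells. The log2 ratio to control was -0.67 with ICM, lower than at all but 7.55% of these sites, and -1.17 in senescent cells, lower than at all but 1.44%. With total signal the log2 ratios were -0.80 and -0.83, at the 5.35th and 7.61st percentile of these sites. The control peak stood at the 99.5th percentile of its list by highest signal. Sites that started equally high were not compared separately. Mean coverage gave the opposite sign, 1.07 and 0.36, since the peaks of the other lists were far narrower than the control peak. Fewer cells with SMC1 at the site and less SMC1 per cell cannot be told apart in such bulk profiles.

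CTCF met SMC1 at the HMGB2 promoter in the ICM list alone. The CTCF peak spanned chr4:173333817-173335404 with a total signal of 20628, near the lowest value of 20161 in that list and at its 2.79th percentile. Its highest signal of 42 stood at the 16.3rd percentile. Neither other CTCF list held a peak in the HMGB2 window. A second SMC1 peak, 36.4 kb upstream at the promoter of SAP30, a subunit of the Sin3 histone deacetylase complex, was listed in control cells with a total of 5602 and in no other list. The HMGB2 window thereby held 2 SMC1 peaks in control and 1 in each of the other conditions.

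HMGB1 (chr13:30456704-30617597, minus strand), the most abundant HMGB protein and a main target of ICM, has 3 annotated starts. The outermost is followed by 2 that lie 151.7 and 152.4 kb further in, both within 1 kb of the same SMC1 peak. SMC1 was found at the outermost start and at this inner pair. The start at 151.7 kb, nearest to the SMC1 summits, is called the inner start here. The outermost start faces that of USPL1, a SUMO protease gene, across 323 bp. The stretches upstream of the outermost and of the inner start are shown because the lists differed between them. They are from RefSeq on GRCh38.p14, 5′ to 3′ on the minus strand, with the letters CCAAT or their reverse complement ATTGG in capitals. The first is chr13:30617598-30617847 and the second chr13:30465937-30466186.
HMGB1 outermost start: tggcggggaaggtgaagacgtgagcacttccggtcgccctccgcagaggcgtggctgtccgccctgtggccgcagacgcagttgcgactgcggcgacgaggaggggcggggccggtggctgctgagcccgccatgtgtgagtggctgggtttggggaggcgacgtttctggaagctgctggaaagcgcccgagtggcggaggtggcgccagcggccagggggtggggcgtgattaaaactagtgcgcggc
HMGB1 inner start: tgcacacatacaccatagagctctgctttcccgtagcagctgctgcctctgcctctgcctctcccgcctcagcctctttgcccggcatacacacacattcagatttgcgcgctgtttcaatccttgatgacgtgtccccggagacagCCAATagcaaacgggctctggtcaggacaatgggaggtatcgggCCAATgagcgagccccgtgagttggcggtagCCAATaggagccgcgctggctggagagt
The letters CCAAT occurred 3 times before the inner start and not at all before the outermost one, counting both strands. Over 35114 RefSeq promoters 32.0% held them in these 250 bases and 2.93% held them 3 or more times. Of the stretches shown the outermost was richer in CG, with 26 such pairs against 14, beside a median of 11. The third start, at 152.4 kb, had 51 CG pairs and the letters CCAAT 1 time in its 250 bases. The outermost stretch also held AGGNGGC, the core letters of the CTCF site, which 31.5% of promoters do. No CTCF peak was listed anywhere in the HMGB1 window in any condition.

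SMC1 at the outermost HMGB1 start had a total signal of 13551 in control, 12003 in treated and 7008 in senescent cells, and a highest signal of 24, 27 and 14. The summits lay 171, 209 and 203 bp upstream, within the first stretch shown, and 152, 114 and 120 bp from the USPL1 start, so the peak cannot be given to either gene. Its percentile by total signal was 90.9, 96.6 and 85.8, and by highest signal 65.0, 88.5 and 74.4. Relative height was 0.889, 1.29 and 1.08, a log2 ratio to control of 0.53 with ICM and 0.28 in senescent cells. By total signal the treated cells were again higher, at 0.26, but the senescent value turned to -0.27. In treated cells every percentile and relative value thus stood above control, and the peak remained among the broad, well-ranked ones in all 3 lists.

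At the inner HMGB1 start, 151.6 kb into the annotated gene, an SMC1 peak was listed in control cells (chr13:30465696-30466216) with a total of 8393 and a highest signal of 44. In ICM-treated cells the total was 5074 and the highest signal 31. Both summits fell inside the second stretch shown, 79 and 76 bp before that start. By highest signal the site ranked at the 92.9th and 92.7th percentile, above the outermost start in both lists. By total signal it ranked at the 73.7th and 68.7th percentile, below the outermost start in both lists. No peak was listed there in senescent cells, where the lowest listed total was 2796, or 0.594 of the median over sites in all lists. On that scale the control peak stood at 1.12 and the treated peak at 0.914.

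Inside the HMGB1 gene body the order of the conditions was different. A narrow site about 47.4 kb from the outermost start was listed in treated cells (chr13:30569817-30570255), with a total of 6174 and a highest signal of 32, and in senescent cells, with values of 2872 and 16. Its percentile by highest signal was 93.6 and 83.3, while by total it was 79.4 and 4.53, so the senescent peak only just entered its list. Control cells had none, their lowest listed total being 3456. Further SMC1 peaks in treated cells alone lay 40.1 kb into the gene, with a total of 3517, and 172 kb from the outermost start at the lncRNA LOC107984577, with a total of 3310. HMGB1 so held 2 SMC1 peaks in control, 5 in treated and 2 in senescent cells.

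HMGB3 (chrX:150980507-150990771, plus strand), a relative expressed in blood progenitors and tumours, had no peak of either protein in any list. The same held for 20.5% of all protein-coding genes and for 58.6% of the 848 on the X chromosome. The empty HMGB3 window was therefore common for its chromosome.

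HMGA2 (chr12:65824460-65966291, plus strand), an AT-hook protein of fetal tissue and of senescence-associated heterochromatin, showed SMC1 and no CTCF. At its 5′ end the SMC1 peak had a total signal of 10671 in control (chr12:65823654-65825536), 6596 with ICM and 2958 in senescent cells. The highest signal was 16, 8 and 6. These were broad, low peaks, with percentiles of 83.9 and 82.2 for total and of 32.4 and 8.57 for highest signal in control and treated cells. In senescent cells both percentiles were low, 8.93 and 7.92, and the summit lay 419 bp into the gene instead of 26 and 63 bp. The senescent peak overlapped the other peaks yet counted as a separate site under the 100 bp summit rule. Relative height was 0.593, 0.381 and 0.462, and relative total signal 1.42, 1.19 and 0.629.

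In the HMGA2 body an SMC1 site 67.8 kb from the start was listed in control cells, with a total of 7568 and a highest signal of 22, and in treated cells, with 6038 and 19. It was not listed in senescent cells. A peak with a total of 2761, 117 kb from the start and within the antisense gene HMGA2-AS2, appeared in treated cells alone. HMGA2 thus held 2, 3 and 1 SMC1 peaks in control, ICM-treated and senescent cells, and as at HMGB1 the treated list held the most, being also the longest of the SMC1 lists.

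**Figure D3:**
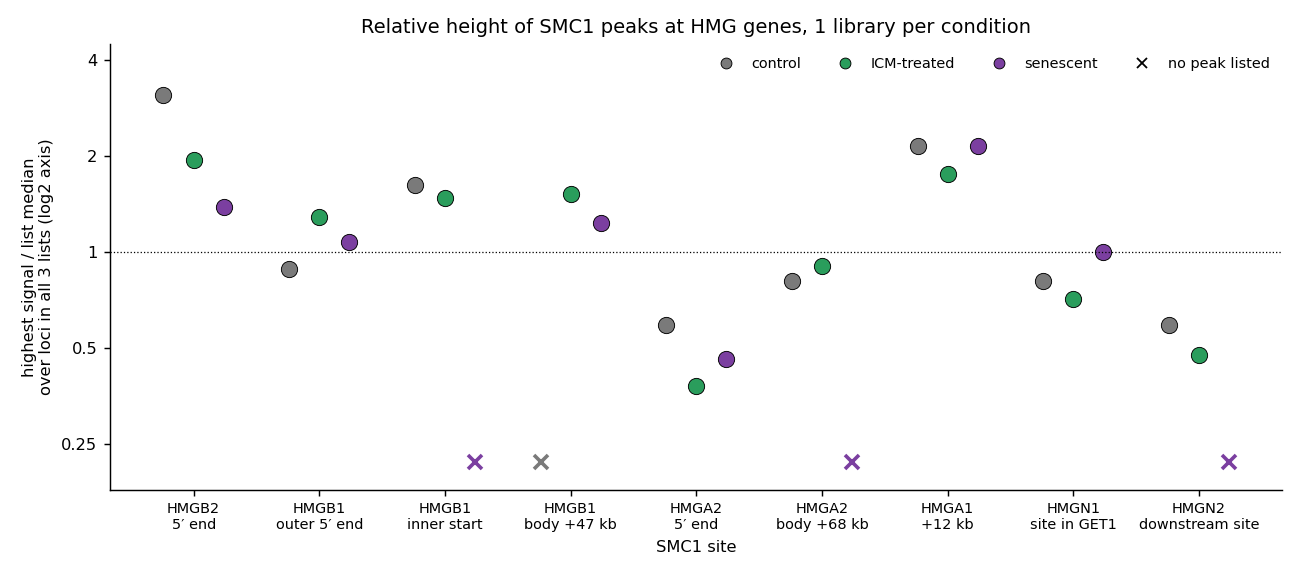
Highest SMC1 signal divided by its median over sites in all 3 lists (y axis, log2 scale) at 9 sites of the HMG windows, in control (grey), ICM-treated (green) and senescent (purple) cells, 1 library each; a cross at the foot marks a list without a peak and carries no value. HMGB2 stands at 3.11, 1.95 and 1.38, whereas the HMGA1 site at +12 kb stays between 1.76 and 2.15; the senescent HMGA2 point has its summit 419 bp into the gene.

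HMGA1 (chr6:34236873-34246231, plus strand), the AT-hook protein of proliferating cells, lay between sites of both architectural proteins. About 12.4 kb from its 5′ end, at the promoter of SMIM29, a small membrane protein gene on the opposite strand, CTCF had a total signal of 60793 in control, 73205 in treated and 28104 in senescent cells. The highest signal was 119, 159 and 87, at the 93.7th, 93.2nd and 95.9th percentile of the respective lists. SMC1 totals there were 19621, 14874 and 10660, at the 97.1st, 98.3rd and 96.1st percentile, the top rank by total of all SMC1 peaks in the HMG windows in every list. This was the CTCF site of highest rank in the HMG windows in each condition. Relative to the sites in all 3 lists, its CTCF total had a log2 ratio to control of -0.54 in both treated and senescent cells. These values stood at the 7.72nd and 21.7th percentile of all such sites. The control CTCF peak was 3994 bp wide, against 2386 bp in treated and 1553 bp in senescent cells, and total signal is summed over the width. For its highest signal the ratios were -0.35 and -0.36, at the 16.7th and 30.6th percentile.

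A second paired site lay 40.4 kb upstream of HMGA1, where no gene is annotated. CTCF had totals of 16979, 33067 and 19513 and a highest signal of 48, 75 and 53. In the percentile of total signal this was 21.5 in control, 51.6 in treated and 84.2 in senescent cells, with the CTCF summit at the same position in all 3 lists. SMC1 peaks lay within 132 bp of that summit in each condition, with totals of 6482, 4241 and 3960. The upstream CTCF site thus ranked higher by total signal in the lists of treated and of senescent cells. Those lists were longer and reached lower, to 0.487 and 0.395 of the median over sites in all lists, against 0.603 in control. The part of list length in these ranks was not tested. On the relative scale the CTCF total of the upstream site had a log2 ratio to control of 0.15 with ICM and 0.77 in senescent cells. For its highest signal the ratios were -0.13 and 0.23.

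Within the HMGA1 body, 7.11 to 7.86 kb from the start, SMC1 peaks overlapped in all 3 lists with totals of 9955, 7808 and 6212. CTCF was listed there with ICM, at a total of 35633, and in senescent cells, at 13419, but not in control cells. Both CTCF peaks were broad and low, at the 9.97th and 10.8th percentile by highest signal. Their summits were 284 bp apart, so they counted as separate sites. In the body of SMIM29, about 10 kb from the HMGA1 start, SMC1 totals were 4071, 2594 and 3297, and a CTCF summit was listed in senescent cells only, with a total of 7507, although the 3994 bp wide control CTCF peak of the 12.4 kb site also reached across this position. A weak SMC1 site 12.8 kb upstream was held by the control and senescent lists. HMGA1 so counted 5, 4 and 5 SMC1 and 2, 3 and 4 CTCF peaks.

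HMGN1 (chr21:39342315-39349088, minus strand) and HMGN2 (chr1:26472440-26476642, plus strand), which bind nucleosomes and oppose linker histone H1, had no peak at their 5′ ends. The stretches before their starts are shown as promoters without a listed peak, for chr21:39349089-39349338 on the minus and chr1:26472190-26472439 on the plus strand, with the same capitals as above.
HMGN1: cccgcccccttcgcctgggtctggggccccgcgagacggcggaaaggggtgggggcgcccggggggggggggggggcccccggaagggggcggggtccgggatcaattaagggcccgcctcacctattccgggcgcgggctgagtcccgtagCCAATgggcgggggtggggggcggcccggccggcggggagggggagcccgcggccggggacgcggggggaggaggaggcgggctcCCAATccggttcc
HMGN2: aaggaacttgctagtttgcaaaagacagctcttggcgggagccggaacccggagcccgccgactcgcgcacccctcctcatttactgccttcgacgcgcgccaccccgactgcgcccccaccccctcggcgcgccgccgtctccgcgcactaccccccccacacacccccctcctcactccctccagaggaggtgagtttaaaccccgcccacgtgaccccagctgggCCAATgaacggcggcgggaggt
HMGN1 held the letters CCAAT 2 times and HMGN2 held them 1 time, with 28 and 25 CG pairs. AGGNGGC occurred 3 times before HMGN1, a number reached by 2.10% of promoters, and not before HMGN2. GGGCGG, the core of the Sp1 site, was found in both, 4 times and 1 time, and in 42.6% of all promoters. CG-rich stretches of this kind were thus found both at HMG starts with an SMC1 peak and at HMG starts without one.

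The nearest sites with both proteins lay outside both genes and their promoters. For HMGN1 a site 39.6 kb upstream, within GET1, a gene of the tail-anchored protein insertion pathway, had CTCF totals of 24959 in control, 51441 in treated and 15378 in senescent cells, and a highest signal of 62, 124 and 56. Its percentile by total was 57.8, 77.5 and 73.9, and the CTCF summit was the same base in all lists. SMC1 summits coincided with it to within 1 bp, with totals of 4946, 3793 and 3759. The site near HMGN1 thus held both proteins at one position in every condition. Relative CTCF height moved by a log2 ratio of 0.23 with ICM and -0.06 in senescent cells.

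SMC1 without CTCF was listed at the GET1 promoter, 31.2 kb upstream of HMGN1, in all 3 conditions, with totals of 6156, 2986 and 4802. Its relative height had a log2 ratio to control of -0.88 with ICM and 0.52 in senescent cells. The value with ICM stood at the 2.91st percentile of sites in all lists, below that of HMGB2. By total signal the ratios were -0.61 and 0.32. A further SMC1 site in GET1, 36.9 kb upstream, was held by the control and ICM lists. The region of the lncRNA BRWD1-AS2, about 34.5 kb downstream of the HMGN1 start, was listed in control and senescent cells with summits 157 bp apart, and a peak 15.3 kb upstream in senescent cells alone. HMGN1 counted 4, 3 and 4 SMC1 peaks.

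For HMGN2 the CTCF site 28.0 kb beyond the start had totals of 30399, 46962 and 13365 and a highest signal of 52, 88 and 33. By percentile of total signal it moved little, from 70.4 to 73.2 and 65.9. SMC1 was listed there in control cells with a total of 7857 and in treated cells with 3367, but not in senescent cells. SMC1 was likewise listed at the promoter of DHDDS, a dolichol synthesis gene 40.2 kb upstream, in control and treated cells, with totals of 3841 and 3011. HMGN2 was thus the one member with SMC1 peaks in control and treated cells and none in senescent cells, while its CTCF peak was held by all lists. The lowest listed SMC1 total in senescent cells was 0.594 of the median over sites in all lists. On that scale the DHDDS peaks stood at 0.510 in control and 0.542 in treated cells, and the downstream SMC1 peaks at 1.04 and 0.606. Most of these lay below or near that limit, so their absence in senescent cells may reflect the limit alone. Relative to the sites in all lists, CTCF height at HMGN2 had a log2 ratio to control of -0.01 with ICM and -0.57 in senescent cells. These stood at the 52.8th and 20.8th percentile of all such CTCF sites, so the senescent value was not unusual.

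**Figure D4:**
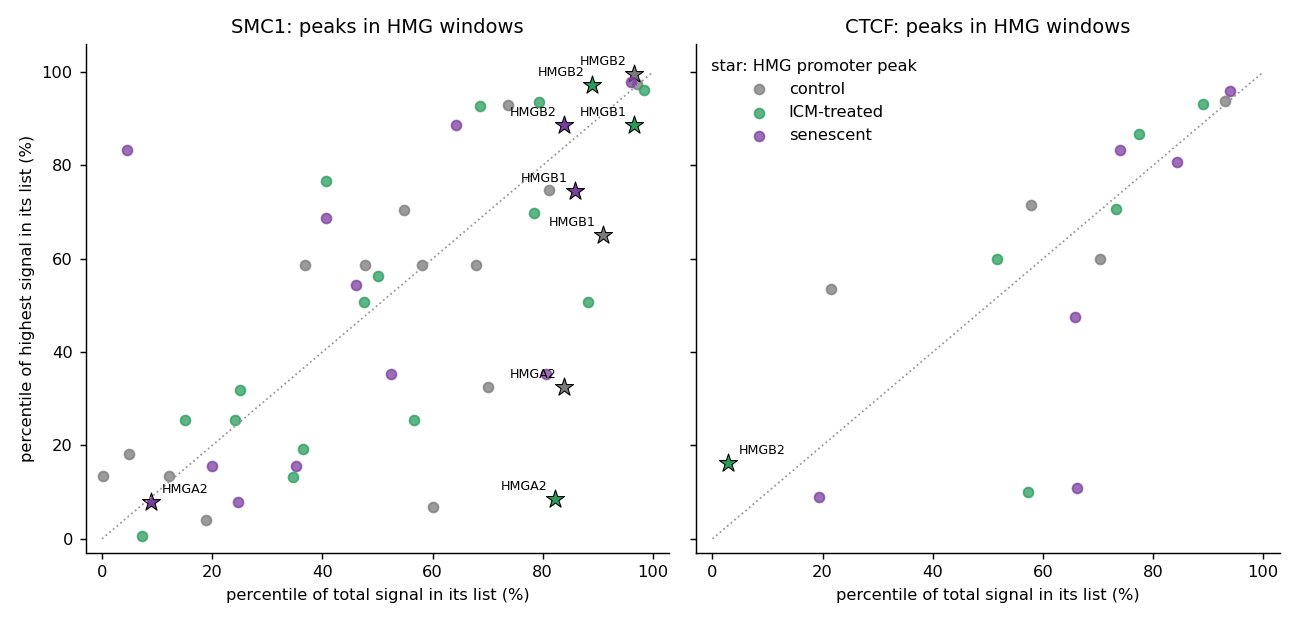
Percentile of total signal (x axis) and of highest signal (y axis) of every peak in the HMG windows within its own list, for SMC1 (left) and CTCF (right), coloured by condition; stars are peaks within 1 kb of a member's 5′ end and the dotted line marks equal percentiles. HMGB2 stars lie at or above the line, the HMGA2 stars of control and treated cells lie far below it, and the only CTCF star is HMGB2 in treated cells, at the 2.79th percentile of total signal.

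When the peaks of the HMG windows were joined into sites across lists, SMC1 gave 28 sites, of which 6 were in all 3 lists, 6 in control and ICM, 1 in ICM and senescent and 1 in control and senescent cells. Over all SMC1 sites these classes made up 20.2%, 15.5%, 5.51% and 3.69%. The other SMC1 sites near HMG genes were in 1 list each, 4 in control, 5 in treated and 5 in senescent cells, where all sites gave 14.5%, 23.2% and 17.4%. For CTCF there were 8 sites, 4 in all lists and 2 each in treated and in senescent cells alone, next to 26.9%, 14.1% and 31.7% of all CTCF sites. With so few sites these counts were not set apart from the genome-wide shares. Most of the sites in 1 list overlapped a peak of another list and counted apart only through the 100 bp summit rule. They are therefore not read as particular to a condition. With whole peaks, 9 of 22 SMC1 sites and 4 of 6 CTCF sites were in all 3 lists. Of the 18 SMC1 peaks with ICM, 12 were shared with control (66.7%, exact 95% interval 41.0 to 86.7) and 6 with senescent cells (33.3%, 13.3 to 59.0). Over the whole ICM list these shares were 54.4% and 38.1%. The SMC1 peaks at HMG genes in treated cells therefore overlapped control cells more often by count, as all SMC1 peaks did, with intervals wide enough to include both background shares. Of the 6 CTCF peaks with ICM, 4 were shared with control and the same number with senescent cells (66.7%, 22.3 to 95.7, for each), next to 53.4% and 66.4% of the list. These intervals express counting error only.

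CTCF summits in the HMG windows coincided with an SMC1 summit in 4 of 4 cases in control, 4 of 6 in treated and 3 of 6 in senescent cells. These were 100% (exact 95% interval 39.8 to 100), 66.7% (22.3 to 95.7) and 50% (11.8 to 88.2), where all CTCF peaks gave 48.9%, 46.6% and 34.8%. With whole peaks in place of summits the counts were 4, 6 and 5, where all CTCF peaks gave 75.8%, 72.6% and 50.2%. In the other direction 4 of 17, 4 of 18 and 3 of 13 SMC1 summits near HMG genes, and none at HMGB1 or HMGA2, coincided with CTCF, beside 15.4%, 17.6% and 23.1% of all SMC1 peaks.

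Other genes with HMG domains or of the HMGN family were counted for comparison. Of 17 such genes an SMC1 promoter peak was listed for 9 in control, 7 in treated and 5 in senescent cells, and a CTCF promoter peak for 3, 3 and 1. The shares over all genes were 31.7%, 27.6% and 22.3% for SMC1 and 8.78%, 12.6% and 9.56% for CTCF. HMGN3, HMGN4, HMGXB3, TFAM, the packaging protein of mitochondrial DNA, and TOX4 had SMC1 in all 3 lists. HMG20B and PBRM1, a subunit of the PBAF remodeller, had it in control and treated cells, and WDHD1, a replication factor, and TOX2 in control cells alone. Like HMGB2, TOX4 stood high by highest signal in every list, at the 95.9th, 93.6th and 94.7th percentile in control, ICM-treated and senescent cells. By total signal TOX4 ranked below HMGB2 in every list, at the 75.1st, 64.4th and 45.4th percentile. Among 11 receptors and partners of extracellular HMGB1, such as the RAGE gene AGER and the Toll-like receptors, only the chemokine CXCL12 had an SMC1 promoter peak, in control and senescent cells, and none had CTCF. At the all-gene shares given above, few of 11 genes would have a CTCF promoter peak, so nothing is read from its absence there.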

How the data were processed

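CUT&Tag peak lists of CTCF and SMC1 in IMR90 were used as deposited, 1 list per library. Per the submitters' processing notes and the methods of the study, the authors mapped reads to GRCh38 with Bowtie2 2.3.4.1, removed duplicates with Picard 2.20.7, made tracks with deepTools, scaled by E. coli reads and called the top 1% of regions per library with SEACR 1.3 in stringent mode. The deposited values are signal (coverage), total and highest per peak. All were whole numbers, so no fractional scaling is visible, and depth is not given.

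Groups came from the titles, and the 2 titles that name no treatment were taken as senescent from the series design. A summit was the midpoint of the region of highest signal. Sites joined peaks whose 100 bp summit windows overlapped by at least 1 bp. A promoter peak had its summit within 1 kb of the outermost 5′ end. Percentiles are shares of a list at or below a value, and chrM was left out. Positions and promoter sequences came from RefSeq tables on GRCh38.p14 (5 of the 7 genes matched the latter), strand from that table or GENCODE by symbol, for 98.3% of genes, and exons were not analysed here. 1 related gene is not reported here. All members were named. Single peaks were those at 5′ ends, the best-ranked per gene and antibody, and those of 1 list at or above the 75th percentile, and further peaks were chosen after their values were seen. Members and lists were chosen with earlier results of these data known. Relative height and densities without HMGA1 were added after the values were seen. Intervals are exact Clopper-Pearson and cover counting error only. Scripts were tested on simulated data and used Python 3.11.15, pandas 2.3.3, numpy 2.4.6, scipy 1.17.1 and matplotlib 3.10.9.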

Additional observations from a re-analysis of the deposited data

Results flagged for a closer look

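Opposite directions of the 2 proteins under the same contrast drew attention in these windows. Over all 7 HMG windows the senescent lists held 2 more CTCF peaks than control and 4 fewer SMC1 peaks (senescent minus control, 2 and -4). In the HMGB2 window the ICM list held 1 more CTCF peak and 1 fewer SMC1 peak than control (1 and -1), and in the HMGA1 window the differences were the same (1 and -1). In both windows the CTCF and SMC1 peaks behind these counts lay at different sites. At HMGB2 the CTCF peak was at the promoter, where SMC1 was listed in every condition, and the SMC1 peak missing with ICM lay 36.4 kb upstream. At HMGA1 the SMC1 peak missing with ICM lay 12.85 kb upstream, with a control total of 3460 beside a lowest listed total of 3456. With 1 library per group the difference between CTCF and SMC1 was not tested. The complete lists moved in the same directions in senescent cells, with 8577 against 4673 CTCF peaks and 12927 against 14883 SMC1 peaks, and the part of list length in these counts was not tested.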

How the results depend on the processing

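Of the values recomputed under alternatives, 4 reversed, 14 moved, and 129 kept their sign and stayed within 1.5 times the value (counts and log2 ratios), within 10 percentile points (ranks) or within the exact interval (shares). Those intervals are wide, so shares inside them still differed. With whole peaks SMC1 sites in all 3 lists came to 40.9% and treated SMC1 peaks shared with senescent cells to 55.6%, and in lists of equal length CTCF peaks with SMC1 came to 50% in control and 20% in senescent cells. Extensions of 25 kb left 10 SMC1 and 2 CTCF peaks in control cells, and 100 kb gave 13 CTCF peaks in senescent cells. Keeping the upper 50% of each list by total signal left 11, 10 and 6 SMC1 peaks in control, ICM and senescent cells. The CTCF promoter peak of HMGB2 with ICM was lost (0) there and in lists of equal length. CTCF peaks with SMC1 in treated cells came to 20% in lists of equal length (1 of 5) and 100% with whole peaks (6 of 6). Relative height ratios (log2, chosen after seeing the data) reversed at HMGB1 in senescent cells by total signal (-0.27) and mean coverage (-0.31), and at HMGB2 by mean coverage with ICM (1.07) and in senescent cells (0.36), which follows from the narrower peaks. At HMGA2 in senescent cells total signal gave -1.17. No paired analysis was possible because each group had 1 library. Without the HMGA1 window, an alternative also chosen after seeing the data, CTCF peaks per Mb came to 2.16, 3.24 and 2.16. Read depth is unknown, and no list shows signal below its lowest total.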

Other observations

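TOX4, an HMG-box gene outside the windows above, was the only one of the 17 related genes with a CTCF promoter peak in all 3 lists. Its CTCF total signal was 50439 in control, 62431 in treated and 23631 in senescent cells, and its highest signal of 146, 184 and 152 stood at the 96.7th, 95.5th and 99.6th percentile. HMGN4 had a CTCF promoter peak in treated cells alone, with a total of 25714, as HMGB2 did, and TFAM in control cells alone, with 14283, next to a lowest listed total of 14246.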
